A study of Mus musculus with 10 samples.

Results

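The genes described here are 10 genes of bile acid handling in mouse liver, chosen by name. They are the uptake carriers Slc10a1, Slco1a1, Slco1a4 and Slco1b2, the canalicular pumps Abcb11, Abcb4 and Abcc2, the basolateral pump Abcc3, and the nuclear receptors Nr1h4 (FXR) and Nr0b2 (SHP). They account for 10 of the 24016 rows of the expression table, and all 10 were among the 13933 rows tested, which had a group mean above 0.5 RPKM in either group. RPKM counts reads relative to transcript length and to the total of tags mapped in the library. Whole liver of 10 young adult male C57BL/6 mice was sequenced as ribosomal-depleted total RNA. In the AdVEGF group, 5 mice had received an adenovirus expressing the growth factor VEGF-A from the CMV promoter, a promoter active in many cell types. In the AdCMV control group, 5 mice had received adenovirus with the same promoter and no transgene, so both groups carried the vector. The labels name the mice of a group as biological replicates. Both vectors were given into the tail vein and the livers were taken on day 6.

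Hepatocytes take up conjugated bile acids from the sinusoid mainly through the sodium-dependent carrier NTCP (Slc10a1), and unconjugated bile acids and other organic anions through sodium-independent OATP carriers (Slco1a1, Slco1a4, Slco1b2). Bile salts leave into the canaliculus through BSEP (Abcb11), together with phospholipid moved by MDR2 (Abcb4) and conjugated organic anions pumped by MRP2 (Abcc2), while MRP3 (Abcc3) returns anions to the blood. FXR (Nr1h4) is the bile acid sensor of the hepatocyte, and it induces SHP (Nr0b2), a receptor without a DNA-binding domain that represses bile acid synthesis. Abcb11 is a textbook FXR target.

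RefSeq promoter windows (GRCm38.p6, 250 bases before to 50 after each start) were matched for 9 of the 10 genes, and Abcc3 had no entry. FXR and its relatives recognise repeats of the hexamer AGGTCA, which reads TGACCT on the other strand. The hexamer was found in a window of 6 of the 9 matched genes, against 16.3% of all 32851 windows. The 6 genes were Slc10a1, Slco1a1, Slco1b2, Abcb11, Abcc2 and Nr1h4. A perfect inverted repeat with 1 base between, AGGTCANTGACCT, which is the arrangement FXR prefers, was in none of the 9 and in 0.00913% of all windows. The direct repeat AGGTCANAGGTCA was likewise in none of them and in 0.0396% of all windows. With 1 mismatch allowed among the 12 fixed letters of the inverted repeat, a search added after the windows had been read, matches were found in 2 of the 9 genes and in 0.0822% of all windows. These were AGGCCATTGACCT in Abcb11, starting 63 bases before the start, and AGGACAGTGACCT in Slco1b2, starting 88 bases before it. The 250 bases before the start are shown for the 4 uptake carriers, which differed most from each other below, and for Abcb11 and Nr0b2, the genes most often used to read out FXR. Hexamers are in capitals and each line runs 5′ to 3′ on the strand of the gene.
Slco1b2, chr6:141629268-141629517, plus strand: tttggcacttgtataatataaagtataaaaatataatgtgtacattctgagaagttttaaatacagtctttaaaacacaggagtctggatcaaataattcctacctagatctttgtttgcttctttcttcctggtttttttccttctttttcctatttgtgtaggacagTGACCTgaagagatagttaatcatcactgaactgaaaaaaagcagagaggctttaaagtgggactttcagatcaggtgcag
Slco1a1, chr6:141946963-141947212, minus strand: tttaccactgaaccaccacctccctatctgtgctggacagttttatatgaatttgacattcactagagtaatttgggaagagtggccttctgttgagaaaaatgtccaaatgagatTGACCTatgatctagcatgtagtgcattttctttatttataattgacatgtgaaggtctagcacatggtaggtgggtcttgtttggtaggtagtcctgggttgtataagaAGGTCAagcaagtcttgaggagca
Slco1a4, chr6:141856221-141856470, minus strand: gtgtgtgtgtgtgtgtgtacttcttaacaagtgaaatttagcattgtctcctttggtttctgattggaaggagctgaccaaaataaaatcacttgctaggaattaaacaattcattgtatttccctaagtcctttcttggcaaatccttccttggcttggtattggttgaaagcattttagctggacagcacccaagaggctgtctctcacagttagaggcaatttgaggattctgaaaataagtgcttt
Slc10a1, chr12:80968080-80968329, minus strand: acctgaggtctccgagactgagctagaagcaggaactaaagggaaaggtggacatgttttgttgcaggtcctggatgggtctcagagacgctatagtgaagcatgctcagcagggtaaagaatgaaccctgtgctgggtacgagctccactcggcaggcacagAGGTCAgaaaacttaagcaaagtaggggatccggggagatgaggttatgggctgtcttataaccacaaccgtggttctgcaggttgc
Abcb11, chr2:69342617-69342866, minus strand: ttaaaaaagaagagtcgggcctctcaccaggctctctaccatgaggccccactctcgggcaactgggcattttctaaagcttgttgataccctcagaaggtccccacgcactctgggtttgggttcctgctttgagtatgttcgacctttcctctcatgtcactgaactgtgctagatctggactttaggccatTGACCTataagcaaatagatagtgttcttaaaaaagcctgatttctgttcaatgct
Nr0b2, chr4:133553126-133553375, plus strand: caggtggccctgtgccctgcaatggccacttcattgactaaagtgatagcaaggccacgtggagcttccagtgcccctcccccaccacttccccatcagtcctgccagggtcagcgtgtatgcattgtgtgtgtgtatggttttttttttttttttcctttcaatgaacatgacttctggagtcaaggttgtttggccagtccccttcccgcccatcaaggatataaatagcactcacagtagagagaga

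In these lines, the Slco1b2 hexamer begins 81 bases before the start, those of Slco1a1 134 and 24 bases before it, that of Slc10a1 87 and that of Abcb11 56. The lines of Slco1a4 and Nr0b2 hold none. Slc10a1 has a second RefSeq start without the hexamer. A match describes the letters in a window and does not show that a receptor bound there.

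The plot of RPKM by mouse gives all 10 genes. In the deposited values, 1 of the 10 was called higher in the AdVEGF group, where 13% of all rows tested were called higher, and 1 was called lower, where 1.54% of all rows were called lower. To be called, a gene had to pass 0.05 by limma on log2(RPKM + 0.1), adjusted over all rows after Benjamini and Hochberg, and to change by more than 1 on the log2 scale. By the adjusted p alone, the same 2 genes passed, against 21.9% of all rows higher and 2.23% lower. Slco1b2 was the lower gene and Slco1a4 the higher gene. Slco1b2 was also the only gene of the 10 whose groups did not overlap, and 1.29% of all rows had every AdVEGF value below every AdCMV value. The median log2 fold change of the 10 genes was -0.0102, beside 0.38 over all rows tested. RPKM is a share of the library. Reads summed over all rows exceeded the mapped tags of every library, so some reads may be counted on more than 1 row. The major urinary protein (Mup) genes of hepatocytes took up 36.6% ± 12.2 of these summed reads in AdCMV mice (SD, n = 5). In AdVEGF mice they took up 16.3% ± 7.92 (SD, n = 5). Each gene is therefore also given after median-ratio scaling, which sets the libraries to a common level over all rows and brought the median of all rows to -0.0044. On that scale the median of the 10 genes was -0.41, with 1 gene called lower (3.14% of all rows) and 0 called higher (7.77% of all rows). By the adjusted p alone, 2 were lower (10.3% of all rows) and 0 higher (12.7% of all rows). Slco1b2 was still the only gene of the 10 whose groups did not overlap after the scaling. Every AdVEGF value was then below every AdCMV value in 7.16% of all rows. At an unadjusted limma p under 0.05, 4 were lower (17.3% of all rows) and 1 higher (18.3% of all rows) on that scale. Voom on the recovered reads, with the same scaling, also called 1 lower (3.42% of all rows) and 0 higher (8.15% of all rows). In AdCMV liver, Slco1b2 had the highest mean (205 RPKM) and Slc10a1 the next (95.7 RPKM), and the AdCMV values of these genes did not overlap. Abcb11, Abcb4, Slco1a1 and Abcc2 followed at 62.4, 51.5, 47.3 and 44.1 RPKM with ranges that overlapped each other, then Nr0b2, Nr1h4 and Abcc3 at 28.9, 28.3 and 23.9 RPKM, which also overlapped, and last Slco1a4 at 2.19 RPKM. In whole liver, fewer hepatocytes and less RNA per hepatocyte cannot be told apart.

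**Figure D1:**
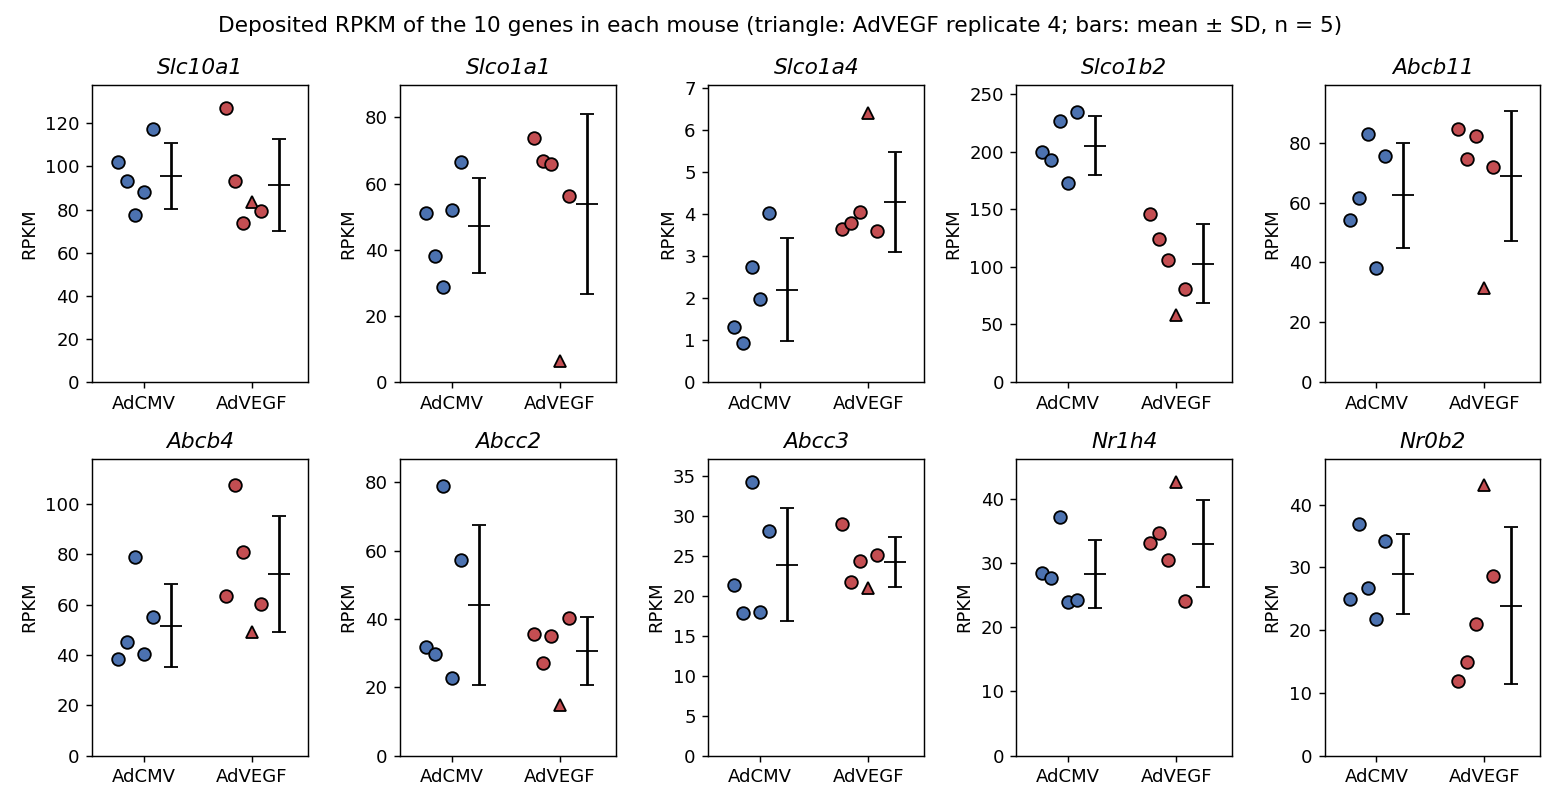
RPKM of each of the 10 genes (vertical axis, from 0) in each AdCMV and AdVEGF mouse, with mean ± SD (n = 5) as bars and AdVEGF replicate 4 as a triangle. Slco1b2 is the only panel in which the groups are apart, from 58.0 to 145 RPKM against 173 to 234 RPKM, and the triangle is the lowest AdVEGF value for Slco1a1, Slco1b2, Abcb11, Abcb4, Abcc2 and Abcc3.

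Slco1b2, which encodes the main OATP of mouse hepatocytes, was the most abundant of the 10 transcripts in AdCMV liver. Its RPKM was 199.98, 193, 226, 173 and 234 in AdCMV replicates 1 to 5, and 145, 124, 106, 58.0 and 80.3 in AdVEGF replicates 1 to 5. Every AdVEGF mouse was below every AdCMV mouse. The AdVEGF mean was 50.03% of the AdCMV mean (103 ± 34.6 against 205 ± 25.2 RPKM, SD, n = 5). On the log2 scale the change was -1.06 (SE 0.24, limma adjusted p = 0.00362), and -1.46 (SE 0.23, limma adjusted p = 0.00048) after median-ratio scaling. Without AdVEGF replicate 4 it was -0.87 (limma adjusted p = 0.00719) and without AdVEGF replicate 5 -0.99 (limma adjusted p = 0.00914), past the p threshold and short of the fold threshold in both cases. With median-ratio scaling and without AdVEGF replicate 4 it was -1.26 (limma adjusted p = 0.000262) and the call was kept. The transcript lies on the plus strand at chr6:141578039-141635156 (mm9, as the table gives it), in the same cluster as Slco1a4 at chr6:141753961-141804692 and Slco1a1 at chr6:141855802-141895483, both on the minus strand.

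Slco1a4, the OATP best known at the blood-brain barrier and also present in hepatocytes, was the least abundant of the 10. Its RPKM was 1.31, 0.935, 2.74, 1.98 and 4.02 in the AdCMV mice and 3.65, 3.79, 4.04, 6.40 and 3.59 in the AdVEGF mice, in order of replicate. AdCMV replicate 5 was within the AdVEGF range and the other AdCMV mice were below it. These values rest on 36 to 88 reads per AdCMV mouse and 78 to 198 per AdVEGF mouse. Its log2 fold change was 1.07 (SE 0.33, limma adjusted p = 0.0248). It was not called after median-ratio scaling, at 0.69 (SE 0.29, limma adjusted p = 0.105), nor without AdVEGF replicate 4, at 0.92 (limma adjusted p = 0.0637). It was also lost without AdCMV replicate 1 or replicate 2, at 0.94 and 0.83.

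Slco1a1, the male-predominant OATP of rodent liver, stood at 51.1, 38.0, 28.8, 51.9 and 66.5 RPKM in the AdCMV mice and at 73.7, 66.9, 65.8, 6.38 and 56.3 RPKM in the AdVEGF mice. AdVEGF replicate 4 had 9.72% of the mean of the other 4 AdVEGF mice, which were at 65.6 ± 7.16 RPKM (SD, n = 4). The difference on the log2 scale was -0.14 (SE 0.51, limma adjusted p = 0.849), with an interval from -1.22 to 0.93. Its sign turned without AdVEGF replicate 4, to 0.52 (SE 0.23, limma adjusted p = 0.122). After median-ratio scaling the difference was -0.54 (SE 0.61, limma adjusted p = 0.565) with all mice. Without AdVEGF replicate 4 the scaled difference was 0.13 (SE 0.29, limma adjusted p = 0.788). On that scale 0 AdVEGF mice were above every AdCMV mouse.

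Slc10a1, the sodium-dependent carrier, had an RPKM of 102, 93.1, 77.3, 88.2 and 118 in the AdCMV mice and 127, 93.3, 73.6, 83.6 and 79.5 in the AdVEGF mice. On these deposited values the groups overlapped across almost their whole range, and replicate 4 of the AdVEGF group was in the middle of it. Its log2 fold change came to -0.08 (SE 0.20, limma adjusted p = 0.79), with an interval from -0.50 to 0.34. After median-ratio scaling it was -0.48 (SE 0.22, limma adjusted p = 0.142). The scaled values of AdCMV replicates 1, 2, 4 and 5 (130, 116, 133 and 118) were above every AdVEGF mouse (58.7 to 109). AdCMV replicate 3 (62.9) was within the AdVEGF range. The position of Slc10a1 in the table is chr12:82054172-82069066 (mm9, minus strand).

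A ratio of 2 transcripts inside 1 library does not depend on how that library is scaled, so 6 pairs of the genes were compared by log2 ratio with a two-sided exact permutation test over the 10 mice. The ratio of Slco1b2 to Slc10a1 was 0.97, 1.05, 1.55, 0.97 and 0.99 in the AdCMV mice and 0.19, 0.41, 0.52, -0.53 and 0.01 in the AdVEGF mice. All 5 AdVEGF mice were below all AdCMV mice. The mean difference was -0.98 (exact permutation p = 0.00794, the smallest that 5 against 5 can give, Benjamini-Hochberg 0.0476 over 6 pairs). Slco1b2 was therefore above Slc10a1 in every AdCMV mouse and in 4 of 5 AdVEGF mice, and below it in AdVEGF replicate 4. Without that mouse the difference was -0.82 (exact permutation p = 0.00794, Benjamini-Hochberg 0.0476). Without AdCMV replicate 3, which had the highest ratio, it was -0.87, and the Benjamini-Hochberg value was 0.0952 (exact permutation test). The ratio of Slco1a1 to Slco1a4 differed by -1.21 (exact permutation p = 0.175, Benjamini-Hochberg 0.21), and by -0.40 without AdVEGF replicate 4 (exact permutation p = 0.349).

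As a share of the summed RPKM of the 4 uptake carriers, Slco1b2 made up 58.7% ± 5.22 (SD, n = 5) in AdCMV liver and 40.2% ± 2.96 (SD, n = 5) in AdVEGF liver. Its share was between 54.8% and 67.5% in the AdCMV mice and between 36.6% and 43.1% in the AdVEGF mice. The share of Slc10a1 was 27.3% ± 2.39 and 37.7% ± 9.60, and that of Slco1a1 13.4% ± 3.25 and 20.1% ± 9.16 (SD, n = 5 each). In AdVEGF replicate 4, Slc10a1 made up 54.1% and Slco1a1 4.13%. The summed RPKM of the 4 carriers was 350.4 ± 43.0 in the AdCMV group and 252.2 ± 73.2 in the AdVEGF group (SD, n = 5), and AdVEGF replicate 4 had the lowest sum, 154 RPKM. Shares add up to 100%, so a smaller share of 1 carrier raises the others.

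**Figure D2:**
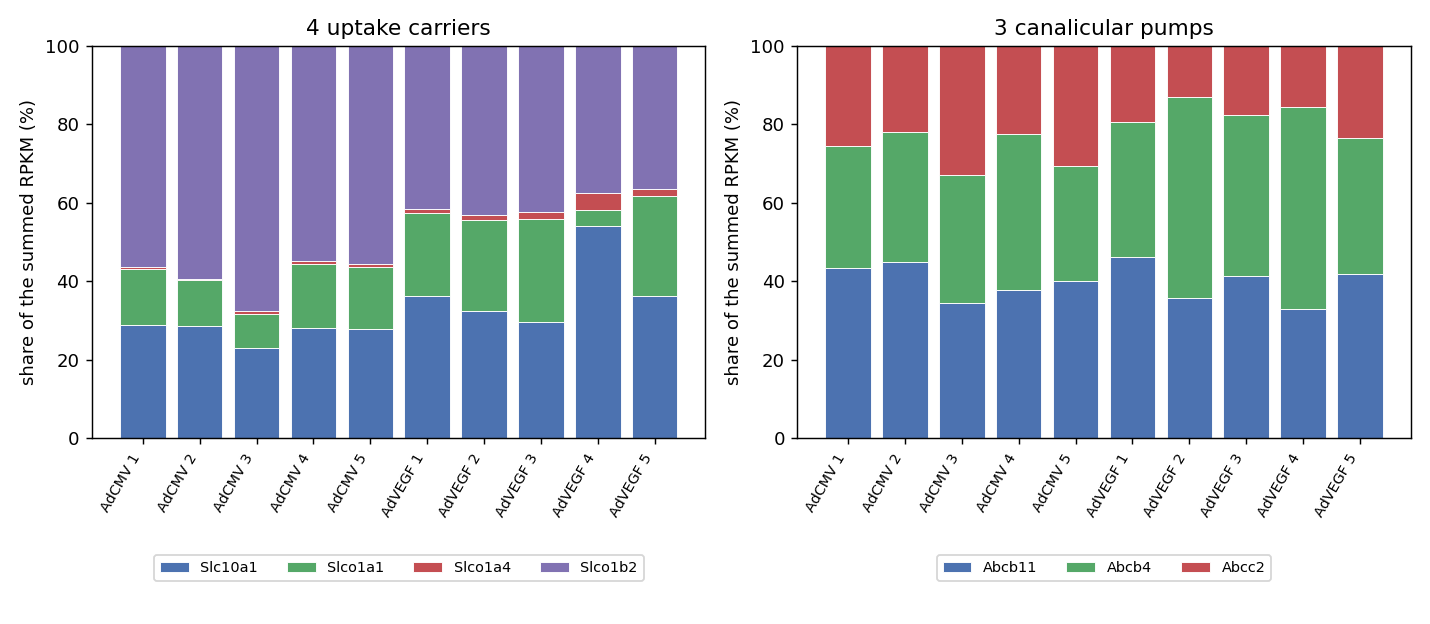
Share in percent of the summed RPKM in each mouse (1 bar per mouse), for the 4 uptake carriers on the left and the 3 canalicular pumps on the right. The Slco1b2 part is at least 54.8% in each AdCMV mouse and at most 43.1% in each AdVEGF mouse, and the Abcc2 part averages 26.7% in AdCMV and 17.8% in AdVEGF mice.

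None of the 3 canalicular pumps was called. Abcb11 (BSEP, chr2:69076339-69180673, mm9, minus strand) stood at 54.2, 61.4, 82.8, 38.1 and 75.4 RPKM in the AdCMV mice and at 84.7, 74.7, 82.3, 31.3 and 72.05 RPKM in the AdVEGF mice. Replicate 4 was the lowest value of both groups, and the other 4 AdVEGF mice were at 78.4 ± 6.04 RPKM (SD, n = 4), inside or just above the AdCMV range. On the log2 scale the change was 0.11 (SE 0.28, limma adjusted p = 0.782), with an interval from -0.48 to 0.70. After median-ratio scaling it was -0.29 (SE 0.25, limma adjusted p = 0.446), so its direction depended on the scaling. Without AdVEGF replicate 4 it was 0.38 (limma adjusted p = 0.244), and -0.012 with the scaling.

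Abcb4 (MDR2, the phospholipid floppase) had 38.5, 45.1, 78.7, 40.3 and 55.03 RPKM in the AdCMV mice and 63.3, 108, 80.9, 48.9 and 60.02 RPKM in the AdVEGF mice. Replicates 2 and 3 of the AdVEGF group were above all AdCMV mice. Its log2 fold change was 0.48 (SE 0.25, limma adjusted p = 0.156) and 0.08 (SE 0.19, limma adjusted p = 0.8) after median-ratio scaling.

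Abcc2 (MRP2, the canalicular pump for bilirubin glucuronides) had 31.9, 29.9, 78.8, 22.7 and 57.4 RPKM in the AdCMV mice and 35.7, 27.2, 35.2, 14.8 and 40.4 RPKM in the AdVEGF mice. AdCMV replicates 3 and 5 were above every AdVEGF mouse. The difference on the log2 scale was -0.45 (SE 0.33, limma adjusted p = 0.317), and -0.21 without AdVEGF replicate 4 (limma adjusted p = 0.638). After median-ratio scaling it was -0.85 (SE 0.29, limma adjusted p = 0.0487), lower by the p threshold and short of the fold threshold, with 4 of 5 AdVEGF mice below every AdCMV mouse. Without the same mouse the scaled value was -0.60 (limma adjusted p = 0.0692). The share of Abcc2 in the summed RPKM of the 3 pumps was 26.7% ± 4.86 in AdCMV and 17.8% ± 3.96 in AdVEGF liver, that of Abcb4 33.2% ± 4.04 and 42.6% ± 8.48, and that of Abcb11 40.2% ± 4.28 and 39.6% ± 5.27 (SD, n = 5 each). The within-mouse ratio of Abcb4 to Abcb11 differed by 0.37 between the groups (exact permutation p = 0.167, Benjamini-Hochberg 0.21), and that of Slc10a1 to Abcb11, the main routes in and out for conjugated bile acids, by -0.19 (exact permutation p = 0.571). Without AdVEGF replicate 4 these were 0.23 (exact permutation p = 0.357) and -0.43 (exact permutation p = 0.151), and over the mice left out 1 at a time the latter ran from -0.43 to -0.037.

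Median-ratio scaling narrowed the AdCMV spread of the pumps. The coefficient of variation over the 5 AdCMV mice went from 28.3% to 11.03% for Abcb11, from 31.99% to 10.0% for Abcb4 and from 53.0% to 28.5% for Abcc2. For the basolateral pump Abcc3 it went from 29.7% to 9.44%. For Slc10a1 and Slco1a1 it went the other way, from 15.9% to 25.4% and from 30.6% to 38.1%. It also rose for Nr0b2, from 22.2% to 25.7%, and for Slco1b2, from 12.3% to 12.8%. In the AdVEGF group it rose for Abcb11 (31.5% to 32.2%), Abcc2 (32.9% to 38.2%) and Abcc3 (13.1% to 17.1%). For Abcb4 it fell there, from 31.7% to 29.9%. In the table Abcb4 lies at chr5:8893721-8959226 and Abcc2 at chr19:43856798-43912708, both on the plus strand, and Abcc3 at chr11:94204609-94254290 and Nr1h4 at chr10:88916979-88969403, both on the minus strand (mm9). The deposited values of the 3 canalicular pumps and of Abcc3 were all highest in AdCMV replicate 3, which also had the highest scaling factor of its group (1.23), and were low in replicate 4, which had the lowest (0.664).

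Abcc3 (MRP3, which exports conjugates to blood and is known to rise in cholestasis) had 21.3, 17.8, 34.2, 18.0 and 28.2 RPKM in the AdCMV mice and 29.0, 21.7, 24.3, 21.0 and 25.1 RPKM in the AdVEGF mice. These AdVEGF values lay inside the AdCMV range, while after median-ratio scaling 3 of 5 AdVEGF mice were below every AdCMV mouse. Its log2 fold change came to 0.06 (SE 0.21, limma adjusted p = 0.853), with an interval from -0.39 to 0.51, and -0.34 (SE 0.14, limma adjusted p = 0.0892) after median-ratio scaling. The within-mouse ratio of Abcc3 to Abcc2 was higher in 3 of 5 AdVEGF mice than in any AdCMV mouse, with a mean difference of 0.51 (exact permutation p = 0.0635, Benjamini-Hochberg 0.19), and of 0.32 without AdVEGF replicate 4 (exact permutation p = 0.135).

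Nr1h4 (FXR) had 28.4, 27.6, 37.2, 23.9 and 24.3 RPKM in the AdCMV mice and 33.0, 34.7, 30.5, 42.6 and 24.1 RPKM in the AdVEGF mice. Only AdVEGF replicate 4 was above the AdCMV range. On the log2 scale the change was 0.22 (SE 0.20, limma adjusted p = 0.433), with an interval from -0.21 to 0.64, and -0.18 (SE 0.15, limma adjusted p = 0.415) after median-ratio scaling.

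Nr0b2 (SHP, chr4:133109305-133112451, mm9, plus strand) had the highest coefficient of variation of the 10 in the AdVEGF group, 52.3%, and 53.0% after median-ratio scaling. Slco1a1 was close behind at 50.6% and 50.2%, and its log2 fold change had the larger SE (0.51 against 0.29). Nr0b2 had 24.9, 36.9, 26.8, 21.7 and 34.1 RPKM in the AdCMV mice and 11.8, 14.9, 21.0, 43.0 and 28.7 RPKM in the AdVEGF mice. AdVEGF replicates 1, 2 and 3 were below every AdCMV mouse, replicate 5 was inside the AdCMV range, and replicate 4 was the highest of all 10 mice. Its log2 fold change was -0.40 (SE 0.29, limma adjusted p = 0.325), and -0.80 (SE 0.32, limma adjusted p = 0.0939) after median-ratio scaling. Without AdVEGF replicate 4 these were -0.65 (limma adjusted p = 0.085) and -1.04 (SE 0.28, limma adjusted p = 0.0209), and the latter passed both thresholds. With that scaling and without that mouse, Slco1b2 and Nr0b2 were the 2 genes of the 10 called lower, against 2.88% of all rows, and 0 were called higher, against 7.72%. Without that mouse and without scaling, 0 were called in either direction, against 12.7% of all rows higher and 1.31% lower. At an unadjusted limma p under 0.05 there were then 3 higher and 2 lower, against 31.4% and 3.41% of all rows. The ratio of Nr0b2 to Nr1h4 differed by -0.61 between the groups, with 3 of 5 AdVEGF mice below every AdCMV mouse (exact permutation p = 0.151, Benjamini-Hochberg 0.21), and by -0.77 without AdVEGF replicate 4 (exact permutation p = 0.0952).

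**Figure D3:**
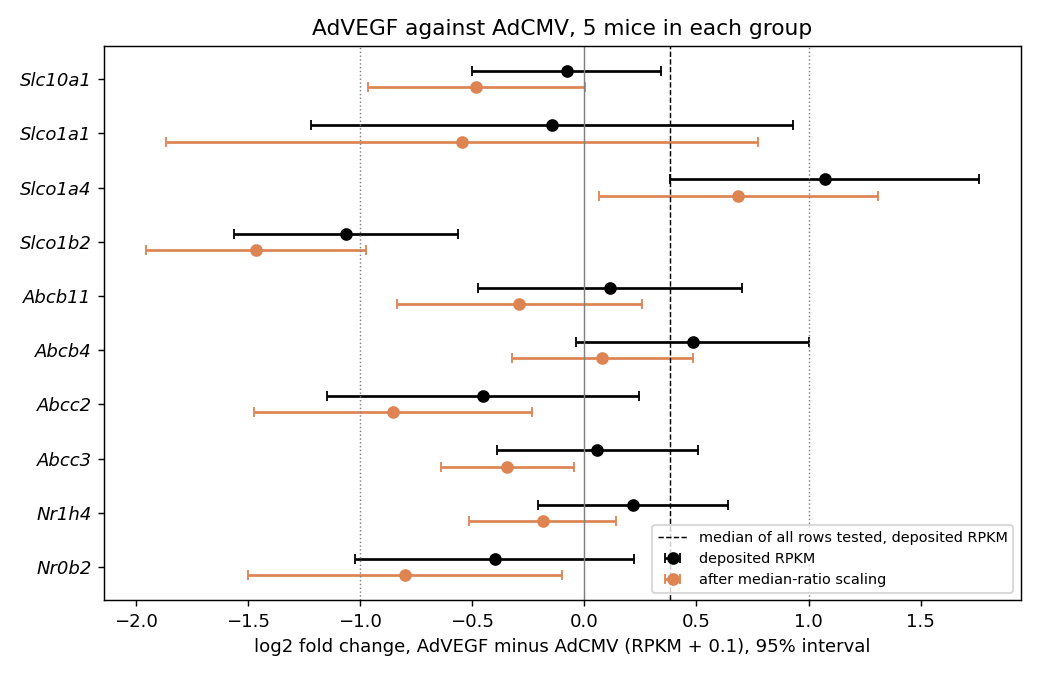
Log2 fold change, AdVEGF minus AdCMV, of each of the 10 genes with its 95% interval (limma, 5 mice in each group), from the deposited RPKM in black and after median-ratio scaling in orange. The dashed line is the median of all rows tested, 0.38, and dotted lines mark the fold threshold. Slco1b2 is past it on both scales, and the other orange points lie between -0.85 and 0.69.

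The rest of the pathway was read from lists of genes. Calls in each list stand beside those over all rows tested, 13% higher and 1.54% lower on the deposited values. After median-ratio scaling these shares were 7.77% and 3.14%. Among the bile acid synthesis enzymes, 17 of 18 were tested, 0 were called higher and 1 lower, and the median log2 fold change was -0.23, beside 0.38 over all rows. After median-ratio scaling 4 were called lower, and the median was -0.63, beside -0.0044 over all rows. By the adjusted p alone, 2 were lower on the deposited values (2.23% of all rows) and 9 after the scaling (10.3% of all rows). With that scaling and without AdVEGF replicate 4, 2 were called lower, Cyp8b1 and Akr1d1, and 6 were lower by the adjusted p alone. The enzyme called lower on the deposited values was Cyp8b1, the sterol hydroxylase that directs synthesis toward cholic acid. Its RPKM was 71.1, 60.1, 27.1, 60.1 and 68.9 in the AdCMV mice and 28.4, 11.1, 10.0, 36.6 and 36.5 in the AdVEGF mice. AdCMV replicate 3 was inside the AdVEGF range and the other 4 AdCMV mice were above it. The log2 fold change of Cyp8b1 was -1.36 (SE 0.37, limma adjusted p = 0.0138).

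Cyp7a1, the rate-limiting enzyme of the classic route and the best known gene under SHP repression, had 6.67, 4.15, 14.8, 7.64 and 16.3 RPKM in the AdCMV mice and 10.9, 7.05, 4.38, 5.61 and 2.18 RPKM in the AdVEGF mice. The groups overlapped, with AdVEGF replicate 5 alone below the AdCMV range. The difference on the log2 scale was -0.71 (SE 0.40, limma adjusted p = 0.193), and -1.11 (limma adjusted p = 0.0474) after median-ratio scaling, which was then called lower. The other enzymes called only on that scale were Cyp7b1 (-1.14, limma adjusted p = 0.0449), an oxysterol hydroxylase of the alternative route, and Akr1d1 (-1.06, limma adjusted p = 0.000139), a reductase of the steroid ring. With the scaling and without AdVEGF replicate 4, Cyp7a1 (-1.12, limma adjusted p = 0.068) and Cyp7b1 (-0.81, limma adjusted p = 0.0665) were no longer called. Cyp27a1, which opens the alternative route, differed by 0.06 (limma adjusted p = 0.875). Baat, which conjugates bile acids with taurine and was named after its values were seen, was the only enzyme of the list whose groups did not overlap, at 45.5 to 58.0 RPKM in AdVEGF and 65.7 to 92.2 RPKM in AdCMV mice, and changed by -0.49 on the log2 scale (limma adjusted p = 0.0569).

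**Figure D4:**
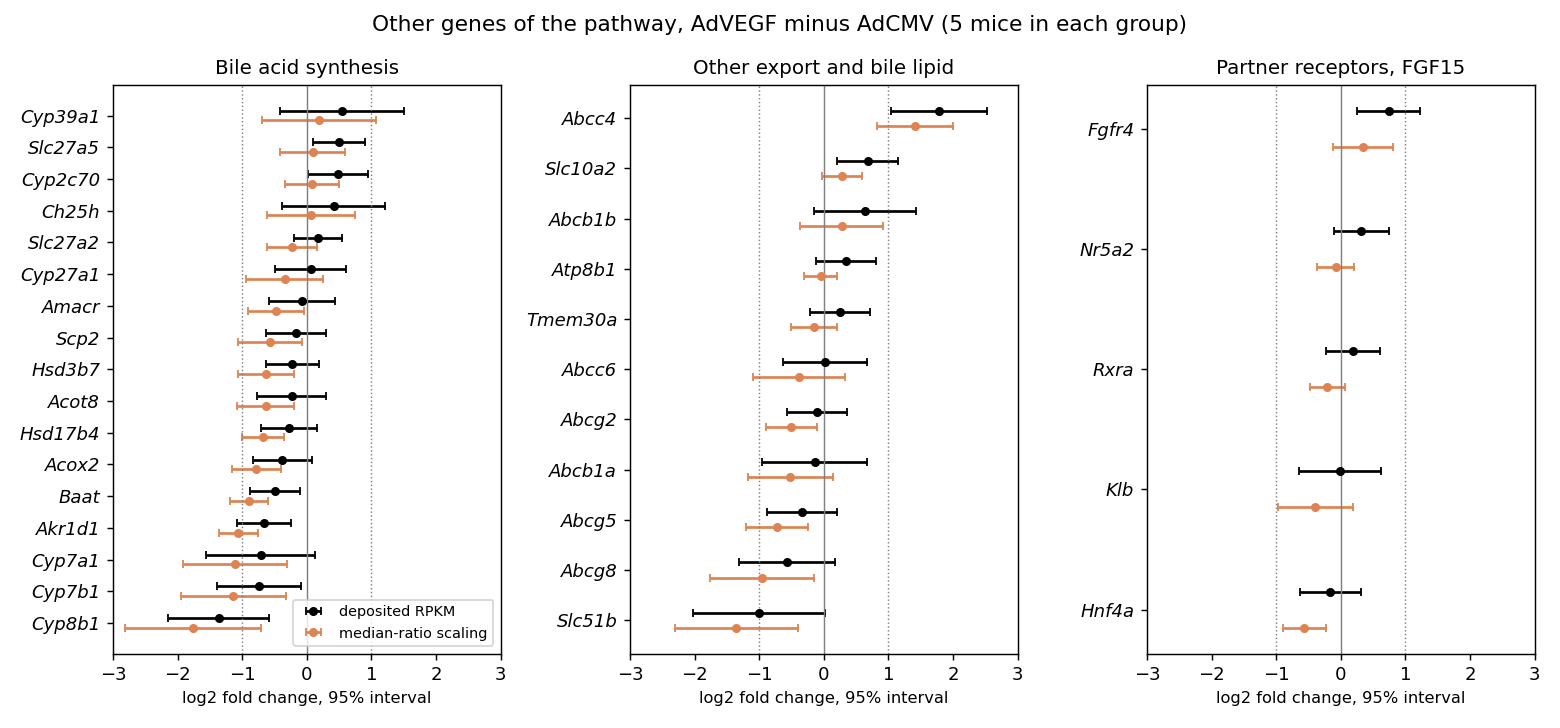
Log2 fold change, AdVEGF minus AdCMV, with 95% intervals (limma, 5 mice in each group) of the synthesis enzymes and other export and bile lipid transporters that were tested and of the receptors and FGF15 signalling genes given by name in the text, from the deposited RPKM in black and after median-ratio scaling in orange. Abcc4 is the only gene to the right of the dotted line at 1. Cyp8b1 is to the left of the line at -1 on both scales, as is Slc51b, which only just passes it on the deposited values. Cyp7a1, Cyp7b1 and Akr1d1 are also left of that line after the scaling.

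Among 13 other export and bile lipid transporters, 11 were tested, with a median log2 fold change of 0.01. Of these, 1 was called higher (13% of all rows) and 0 lower (1.54% of all rows). The higher gene was Abcc4 (MRP4), a basolateral bile salt exporter that is low in healthy liver. Its RPKM was 0.559, 0.666, 2.64, 0.504 and 0.948 in the AdCMV mice and 3.73, 3.11, 3.27, 2.53 and 3.69 in the AdVEGF mice. AdCMV replicate 3 was within the AdVEGF range and the other AdCMV mice were below 1 RPKM. The log2 fold change of Abcc4 was 1.78 (SE 0.35, limma adjusted p = 0.00143), and 1.41 (limma adjusted p = 0.00239) after median-ratio scaling. Of the heteromeric transporter OST, which also exports bile acids to blood, the beta chain Slc51b had a mean of 2.27 ± 1.64 RPKM in AdCMV and 0.932 ± 0.522 RPKM in AdVEGF liver (SD, n = 5), and a difference of -1.004 on the log2 scale (limma adjusted p = 0.137). After median-ratio scaling Slc51b was called lower, at -1.36 (limma adjusted p = 0.0422). The alpha chain Slc51a was below the limit for testing, with group means of 0.0194 and 0.0388 RPKM.

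Of 12 other organic anion and cation transporters, 11 were tested and 0 were called in either direction on the deposited values, with a median of 0.0088. At an unadjusted limma p under 0.05 there were 0 higher and 2 lower, against 34.9% and 3.69% of all rows, and voom also called 0. With median-ratio scaling, limma and voom each called 2 lower and 0 higher. Slco3a1, a widely expressed OATP, was lower by the p threshold at -0.93 (limma adjusted p = 0.0128), short of the fold threshold, and every AdVEGF mouse was below every AdCMV mouse. Slco3a1 was 1 of the 2 called lower by limma after the scaling, at -1.30 (limma adjusted p = 0.000136).

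Of 16 partner receptors and components of FGF15 signalling, 13 were tested and 0 were called on either scale by limma or voom, with a median of 0.19, and -0.21 after median-ratio scaling. At an unadjusted limma p under 0.05, 2 were higher and 0 lower on the deposited values, against 34.9% and 3.69% of all rows. After the scaling 0 were higher and 3 lower, against 18.3% and 17.3% of all rows. By the adjusted p alone, 1 was higher on the deposited values (21.9% of all rows). After the scaling 2 were lower by it (10.3% of all rows), among them Hnf4a (-0.56, limma adjusted p = 0.0185). FXR binds DNA with the retinoid X receptor, and Rxra was at 26.0 ± 6.74 RPKM in AdCMV and 28.9 ± 0.879 RPKM in AdVEGF liver (SD, n = 5), a log2 difference of 0.19 (limma adjusted p = 0.492). Nr5a2 (LRH-1), which SHP silences on bile acid genes, had 0.32 (limma adjusted p = 0.25) and Hnf4a, a master regulator of hepatocyte genes, had -0.16 (limma adjusted p = 0.603) before the scaling. Fgfr4, the hepatocyte receptor for the gut hormone FGF15, was higher by the p threshold at 0.74 (limma adjusted p = 0.0272), short of the fold threshold, and its co-receptor Klb had -0.01 (limma adjusted p = 0.978). Fgfr4 no longer passed after the scaling, at 0.35 (limma adjusted p = 0.275), or without AdVEGF replicate 4, at 0.67 (limma adjusted p = 0.0677), nor without AdCMV replicate 2 or 4 or AdVEGF replicate 1 or 5.

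Of 9 proteins that anchor pumps at the canaliculus or carry them there, all were tested and 0 were called by limma or voom, with a median of 0.37, and -0.03 after median-ratio scaling. At an unadjusted limma p under 0.05, 4 were higher and 0 lower on the deposited values, against 34.9% and 3.69% of all rows. After the scaling 1 was higher and 2 lower, against 18.3% and 17.3% of all rows. In 3 of the 9, named after their values were seen, every AdVEGF mouse was above every AdCMV mouse, where 14.3% of all rows were so. They were Rab11a, a GTPase of recycling endosomes (log2 fold change 0.89, limma adjusted p = 0.00686), Slc9a3r1, a scaffold under the apical membrane (0.68, limma adjusted p = 0.0148), and Vps33b, a trafficking protein (0.66, limma adjusted p = 0.0321). After median-ratio scaling these were 0.49 (limma adjusted p = 0.0344), 0.28 (limma adjusted p = 0.21) and 0.27 (limma adjusted p = 0.194), and Myo5b, a myosin of recycling endosomes, passed the p threshold at -0.84 (limma adjusted p = 0.00605). Without AdVEGF replicate 4 and without scaling, Vps33b no longer passed it (limma adjusted p = 0.0617), and it passed without AdCMV replicate 3 or 5 but not without any other single mouse.

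Slco1a1 and Cyp7b1 belong to the genes that male mice express more strongly in liver, and lists of such genes were read beside them. Of 9 male-biased genes tested, 3 were called lower (1.54% of all rows) and 1 higher (13% of all rows). Cyp4a12a was lower at -2.90 (limma adjusted p = 0.00107), Cyp4a12b at -2.48 (limma adjusted p = 0.00191) and Elovl3 at -2.43 (limma adjusted p = 0.033), while Serpina1e was higher at 1.28 (limma adjusted p = 0.00863). Serpina1e was not called after median-ratio scaling (0.88, limma adjusted p = 0.165), with the other scalings or without AdCMV replicate 3. With median-ratio scaling 5 male-biased and 5 female-biased genes were called lower, where 3.14% of all rows were. Of 8 female-biased genes tested, 3 were called lower, Cyp2a4 (-3.37, limma adjusted p = 0.00288), Cyp2b9 (-1.98, limma adjusted p = 0.00953) and Cyp3a44 (-1.21, limma adjusted p = 0.0389), and 0 higher. Without AdVEGF replicate 4, Elovl3 (limma adjusted p = 0.0567) and Cyp3a44 (limma adjusted p = 0.0683) were no longer called, while the female-biased Cyp17a1 was called lower (-1.86, limma adjusted p = 0.00209). The lower calls also fell to 2 of the male-biased genes without AdCMV replicate 1, 4 or 5 or AdVEGF replicate 3, and to 2 of the female-biased genes without AdCMV replicate 3, 4 or 5. The near-identical members of the Cyp4a12, Cyp2a and Cyp3a groups share reads, so their separate values are uncertain.

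AdVEGF replicate 4 stood apart from its group in several of the 10 genes and in most of the acute phase genes listed, the plasma proteins that hepatocytes make more of in inflammation. Relative to the mean of the other 4 AdVEGF mice it had 9.72% of the Slco1a1, 39.9% of the Abcb11, 42.7% of the Abcc2 and 51.0% of the Slco1b2 level. It had 62.8% of the Abcb4 level. It had 225% of the Nr0b2, 170% of the Slco1a4 and 139% of the Nr1h4 level. Its Slc10a1 level, at 89.5%, and its Abcc3 level, at 83.9%, were close to those of the other mice. The acute phase genes Saa1 and Lcn2, named after their values were seen, were far above their levels in every other mouse. Saa1 was at 4298 RPKM in it, at 30.3 to 146 RPKM in the other AdVEGF mice and at 212 to 389 RPKM in the AdCMV mice. Lcn2 was at 1599 RPKM in it, at 9.06 to 36.8 RPKM in the other AdVEGF mice and at 28.4 to 68.0 RPKM in the AdCMV mice. The summed level of 10 acute phase genes was 35776 RPKM in it and 6680 to 9259 RPKM in the AdCMV group. On the deposited values 1 of the 10 acute phase genes was called lower (1.54% of all rows), Saa3 at -5.10 (limma adjusted p = 3.34e-07). Without AdVEGF replicate 4 there were 4 (1.31% of all rows). The part of this mouse's acute phase state in its transporter levels was not tested.

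**Figure D5:**
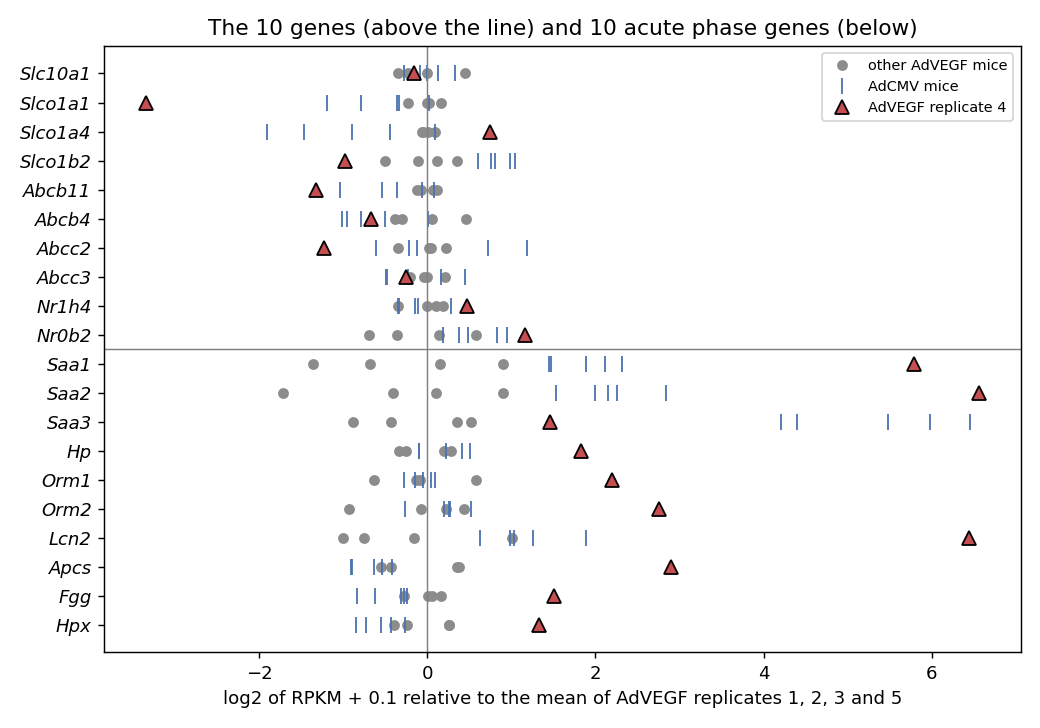
Log2 of RPKM + 0.1 relative to the mean of AdVEGF replicates 1, 2, 3 and 5, for the 10 genes above the line and 10 acute phase genes below it. Triangles are AdVEGF replicate 4, grey points the other 4 AdVEGF mice and blue ticks the AdCMV mice. Triangles are left of the others for Slco1a1, Slco1b2, Abcb11 and Abcc2 and right of them for Slco1a4, Nr1h4, Nr0b2 and, Saa3 apart, the acute phase genes.

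Levels of cell type markers differed between the groups, and in whole liver more cells of a type and more RNA per cell cannot be told apart. Over all rows, 13% were called higher and 1.54% lower on the deposited values, and 7.77% and 3.14% with median-ratio scaling. Of 12 endothelial markers all 12 were called higher on both scales, with a summed level of 363 to 479 RPKM in the AdVEGF and 44.4 to 85.2 RPKM in the AdCMV mice. Of 12 hepatocyte markers, all of them present, 3 were called higher (Alb, Apoa1 and Trf) and 0 lower on the deposited values, with summed levels of 34758 to 42179 RPKM in AdVEGF and 19627 to 26375 RPKM in AdCMV mice. With the scaling, 2 were lower (Tdo2 and Cyp2e1) and 0 higher, and the median of the list was -0.03. Of 10 Kupffer cell markers, 3 were called higher (Clec4f, Vsig4 and Csf1r), with summed levels of 241 to 366 RPKM in AdVEGF and 120 to 255 RPKM in AdCMV mice. With each other scaling 2 Kupffer cell markers were called higher. Of 9 cholangiocyte markers 7 were tested and 2 were called higher, Spp1, an extracellular matrix protein that other cells also make, at 268 to 714 RPKM against 17.9 to 45.7 RPKM, and Tspan8 at 1.25 ± 0.409 RPKM against 0.528 ± 0.338 RPKM (SD, n = 5). Tspan8 was not called with median-ratio scaling (0.87, limma adjusted p = 0.0509) or the other scalings, nor without AdCMV replicate 1 or 4 or AdVEGF replicate 1 or 3. There was 1 cholangiocyte marker called higher with each other scaling and without each of these mice but AdVEGF replicate 1. The cholangiocyte keratins Krt19 and Krt7 were low, with Krt19 at 0.43 and 0.536 RPKM and Krt7 at 0.298 and 0.449 RPKM (means in AdCMV and AdVEGF), and Cftr was near 0. The part of these differences in the values of the 10 genes was not tested. On the median-ratio scale the value of Slco1b2, -1.46, lay below those of all 12 hepatocyte markers, of which Cyp2e1 was lowest at -1.17. The limma interval of Slco1b2 on that scale, from -1.95 to -0.97, contained the Cyp2e1 value. Differences between Slco1b2 and the markers were not tested. The value of Slc10a1, -0.48, lay within the range of the markers.

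Libraries held 5758960 to 13493983 mapped tags in the AdCMV group and 5596563 to 8133960 in the AdVEGF group, recovered from the steps of the RPKM values. For a 1 kb transcript, 3 reads amounted to 0.222 to 0.536 RPKM, a limit that covers counting error only, and the 10 genes rest on 36 to 8539 reads per AdCMV mouse and 74 to 3233 per AdVEGF mouse. For libraries as a whole, counting error was small beside the spread between mice. The variance between any 2 libraries of a group was 12.4 or more times that of counting. This does not hold for each gene. Slco1a4 had 78 to 107 reads in AdVEGF replicates 1, 2, 3 and 5. Counting error was not small beside its spread there (coefficient of variation 5.28%).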

How the data were processed

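Ribosomal-depleted liver RNA was sequenced from 5 mice given AdVEGF and 5 given AdCMV. Per the labels' processing notes and the paper's methods, the authors mapped reads with TopHat, used HOMER and mm9, and normalized each library to its mapped tags. Their deposited table holds RPKM per mouse for 24016 RefSeq transcripts. It also holds a log fold change and FDR of their own, which were not used. Groups were taken from the labels.

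Reads behind each RPKM value were recovered from the steps of the values, and 100% came out whole within 0.1 read. Rows without a gene symbol (5) were left out. The test was limma 3.58.1 in R 4.3.3 (lmFit, then eBayes with its trend option) on log2(RPKM + 0.1), which understates fold changes of low genes, over rows whose mean exceeded 0.5 RPKM in either group. A call took a Benjamini-Hochberg adjusted p below 0.05 plus a change of more than 1 on the log2 scale. Ratios within mice were compared with two-sided exact permutation tests in Python 3.11.15. The fit was tested on simulated data.

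The genes, lists, pairs and tests were chosen with earlier results of these data known. Named beside the 10 genes were 11 pathway genes whatever their values (Cyp7a1, Cyp8b1, Cyp27a1, Slc51a, Slc51b, Abcc4, Rxra, Nr5a2, Hnf4a, Fgfr4, Klb) and, of each list, at most 8 called genes by absolute log2 fold change, of which 1 is not reported here. Alternatives were 3 other scalings (median-ratio, upper quartile, totals without the Mup genes), pseudocounts of 1 and 0.01, no filter or 1 RPKM, 1 row per symbol, a block for the replicate number, and each mouse left out. Voom on the recovered reads, also with median-ratio scaling, and that scaling without AdVEGF replicate 4 were chosen after seeing the data.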

Additional observations from a re-analysis of the deposited data

Results flagged for a closer look

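A value was singled out where its gap to the nearest mouse of its group, divided by the range of the group, passed Dixon's critical value for 5 samples (0.71). Of 118 groups of 5 mice tested, 18 were singled out, where chance gives about 1 in 20. AdVEGF replicate 4 accounted for 10 of them. Among the transporters it was low for Slco1a1 (6.38 RPKM, the other AdVEGF mice at 56.3 to 73.7) and Abcb11 (31.3 RPKM) and high for Slco1a4 (6.40 RPKM), and its log2 ratio of Slco1a1 to Slco1a4 was -0.0044. It was also low for Cyp27a1 (33.6 RPKM), Cyp3a44 (3.60 RPKM), Cyp3a16 (2.72 RPKM) and the endothelial receptor Kdr (16.0 RPKM), and high for Trf (7188 RPKM) and the endothelial junction gene Cldn5 (52.9 RPKM).

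AdCMV replicate 3 accounted for 6. It was low for Cyp8b1 (27.1 RPKM) and Apoa1 (1502 RPKM) and high for Abcc4 (2.64 RPKM), Cyp2a4 (557 RPKM) and Cyp2b9 (2.04 RPKM), and its log2 ratio of Slco1b2 to Slc10a1 was 1.55. The others were Cyp2a4 in AdVEGF replicate 3 (41.8 RPKM) and Trf in AdCMV replicate 5 (3473 RPKM).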

How the results depend on the processing

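Slco1b2 kept its direction and its call under the 12 settings other than leaving out a single mouse, between -1.48 and -1.05 on the log2 scale. The call was lost, on the fold threshold, without AdVEGF replicate 4 (-0.87) or AdVEGF replicate 5 (-0.99), and the values without single mice ran from -1.21 to -0.87. Slco1a4 was called in 5 of the 12. It was lost with totals without the Mup genes (0.67), median-ratio scaling (0.69), upper quartile scaling (0.73), a pseudocount of 1 (0.79), voom with median-ratio scaling (0.80) and no filter (1.07, limma adjusted p = 0.0502), and it ran from 0.83 to 1.32 without single mice, with 0.55 after median-ratio scaling without AdVEGF replicate 4. Each of these settings left 0 of the 10 genes called higher. Slc10a1, Abcb4 and Abcc2 kept their direction and were uncalled under all 12 settings and without each of the 10 mice. Abcb11, Abcc3 and Nr1h4, which were not called, changed sign with every other scaling: to -0.30, -0.35 and -0.20 without the Mup genes, -0.29, -0.34 and -0.18 with median-ratio scaling, -0.24, -0.30 and -0.14 with upper quartile scaling, and -0.27, -0.34 and -0.19 with voom and median-ratio scaling. Each of these scalings lowered the value of each of the 10 genes.

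Without single mice, in some cases also with median-ratio scaling, Slco1a1 ran from -0.35 to 0.52 (0.13 with the scaling), Abcb11 from -0.051 to 0.38 (-0.012 with the scaling), Abcc3 from -0.28 to 0.20 (-0.036, -0.031 and -0.0089 without AdCMV replicate 2, AdCMV replicate 4 and AdVEGF replicate 1), Nr1h4 from -0.27 to 0.32 and Nr0b2 from -1.04 to -0.18. The 10 genes had 0 to 1 calls higher and 0 to 2 lower. The lists had these ranges of calls: synthesis enzymes 1 to 2 lower, export transporters 0 to 1 lower, organic ion transporters 0 to 2 lower, male-biased genes 0 to 1 higher, hepatocyte markers 0 to 4 higher and 0 to 1 lower, cholangiocyte markers 1 to 2 higher, and acute phase genes 0 to 1 higher and 1 to 4 lower.

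Over the settings median-ratio scaling, totals without the Mup genes, upper quartile scaling and voom with median-ratio scaling, in this order, the synthesis enzymes had 4, 3, 2 and 4 calls lower, the organic ion transporters 2 in each, and the hepatocyte markers 0 higher and 2 lower in each. The export transporters had 1 lower in each but upper quartile scaling, the male-biased genes 0 higher in each and 5 lower in each but upper quartile scaling, and the cholangiocyte markers 1 higher in each. The female-biased genes had 5 lower with median-ratio scaling and 6 with voom and that scaling. Without the filter 1 hepatocyte marker was higher, with a pseudocount of 1 there was 1 cholangiocyte marker higher, and with voom alone 1 acute phase gene was higher.

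With the replicate number as a block, Slco1b2 (limma adjusted p = 0.000562) and Slco1a4 (limma adjusted p = 0.00469) kept their calls, 5 female-biased genes were lower and 1 acute phase gene was higher. The ratio of Slco1b2 to Slc10a1 then had a Benjamini-Hochberg value of 0.125 at the same difference of -0.98, where the exact sign-flip test over 5 pairs cannot give a p below 0.0625. Deviations of same-numbered mice correlated between 0.0076 and 0.291, and 2 of 5 pairs were over 0.1. With 5 pairs, these values cannot settle whether the numbers pair the mice. Without AdCMV replicate 3 that ratio was -0.87, and it ran from -1.08 to -0.82 over the mice left out. The values of Slco1a4, Slc51b and other genes near the limit of testing rest on few reads, and the cause of the differences between settings was not tested.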
